A study of Mus with 12 samples.

Results

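The genes described here encode an interleukin ligand, receptor chains and a transcription factor through which interleukin 4 (IL-4), interleukin 13 (IL-13) and interleukin 17 (IL-17) act. They are the rows of a blood expression table whose symbol is Il4, Il4ra, Il13ra1, Il2rg, Il17ra or Stat6. These 6 genes were taken from 25247 rows, and 5 of them passed the filter on low values that 5527 genes passed in all. The exception was Il4.

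Whole blood of 12 female BALB/c mice was sequenced on day 30 of the experiment, in 4 groups of 3 mice with a library for each mouse. Mice of the Solvent group, 6 weeks old at the start as were the others, received only the vehicle, a mixture of acetone and olive oil, on the shaved back. Mice of the DNCB group were sensitised with 1% and challenged with 0.5% 2,4-dinitrochlorobenzene, a contact sensitiser that produces dermatitis resembling atopic dermatitis. The scMSC and scivMSC mice received the same DNCB applications and, in addition, doses of 2000000 human umbilical cord mesenchymal stem cells (MSCs), either as 100 µL under the skin or as 50 µL under the skin with 50 µL into the tail vein. Every comparison of an MSC group with Solvent therefore holds both the sensitiser and the cells, and no group received the cells without DNCB.

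IL-4 and IL-13 are the cytokines of type 2 immunity, and both bind receptors that contain the IL-4 receptor alpha chain, encoded by Il4ra. Paired with the common gamma chain (Il2rg), this chain forms the type I receptor for IL-4 found on lymphocytes and other blood cells. Paired with the IL-13 receptor alpha 1 chain (Il13ra1), it forms the type II receptor for IL-4 and IL-13, which is known from myeloid and non-haematopoietic cells, and both receptors activate STAT6 through Janus kinases. IL-17 cytokines act through a separate family of receptors that share the chain encoded by Il17ra, and antibodies against IL-4 receptor alpha and against IL-17 are used in inflammatory skin disease.

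Levels are given in FPKM, fragments scaled to the length of the gene and to the total of the library, a scale per length on which genes can be compared. Total estimated counts ranged from 52179764 to 65139421 per library, and haemoglobin genes took 91.3% to 95.6% of the summed FPKM. Between 11806 and 17350 genes reached 4 counts, with the fewest in replicate 2 of scivMSC. A difference is called when the Benjamini-Hochberg adjusted p of edgeR's quasi-likelihood test is under 0.05 and the fold change over 2. Libraries were scaled by total counts, and on this scale the median log2 fold change of all tested genes was 0.06 for DNCB set against Solvent, and -0.63 and -1.53 for scMSC and scivMSC set against DNCB. For the same groups set against Solvent it was -0.59 and -1.47, and for scivMSC set against scMSC -0.87, whereas scaling by trimmed means of M values (TMM), which centres the genes, left every median between -0.09 and 0.06. Changes are therefore also given relative to the median.

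Il4 (ENSMUSG00000000869; chromosome 11, 53602982 to 53618669, minus strand) encodes the ligand IL-4. Its level was 0.859, 0.505 and 0.449 FPKM in the Solvent libraries and 0.323, 0.679 and 0.0966 FPKM in the DNCB libraries. It was 0.859, 0.935 and 0.988 FPKM in scMSC and 1.07, 0.356 and 1.04 FPKM in scivMSC. The 3 scMSC libraries lay together above all DNCB libraries, as did those of 5.54% of all tested genes, a set that leaves Il4 out. The Solvent, DNCB and scivMSC libraries overlapped. These levels rest on 8 to 77 estimated counts per library, with the lowest in DNCB replicate 3. Over the 4 groups, an exact permutation test on log2(FPKM + 1) gave p = 0.150, and without scivMSC replicate 2 it gave p = 0.0478. In an edgeR fit without the filter on low values, Il4 passed in no comparison, with adjusted p between 0.328 and 1 and an unadjusted p of 0.105 for scMSC against DNCB.

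The other ligands of the pathways that had a row were lower still. Il5, Il9, Il25 and Il31 of the type 2 ligands had no row. Neither had Il17a, Il17b, Il22 and Il23a of the IL-17 and IL-23 ligands, so the levels of these genes are not known here. Il13 had reads only in the DNCB group, and not in every library of it. Its values there ran from 0 to 0.0490 FPKM, with a mean of 0.0163 FPKM ± 0.028 (SD, n = 3). The epithelial cytokines Il33 and Tslp, which start type 2 responses at barriers, had group means of at most 0.118 and 0.101 FPKM, and the IL-17 family members Il17c and Il17f had means of at most 0.0644 and 0.0412 FPKM. None of these ligands reached the filter on low values, so their differences were not tested. Il17c was at 0.0516 to 0.0824 FPKM in DNCB and 0.0295 to 0.0402 FPKM in Solvent, without overlap, and was listed at 0 in all MSC libraries. Il17f was at 0 in all DNCB libraries and at 0.0296 to 0.0603 FPKM in scMSC. It reached 0.0185 FPKM in Solvent and 0.0323 FPKM in scivMSC, with a lowest value of 0 in both. Without overlap, 25% of all tested genes lay higher in DNCB than in Solvent. Against DNCB, 49.8% lay lower and 5.54% higher in scMSC, and 67.9% lay lower in scivMSC. These shares cover genes that passed the filter, which Il17c and Il17f did not.

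Il4ra (ENSMUSG00000030748; chromosome 7, 125552120 to 125579474, plus strand) encodes the chain that the type I and type II receptors share. It was measured at 5.51, 3.27 and 2.57 FPKM in Solvent and at 4.80, 8.64 and 7.19 FPKM in DNCB. In scMSC the values were 2.74, 1.56 and 1.79 FPKM, and in scivMSC they were 1.05, 0.436 and 0.626 FPKM. The Solvent and DNCB libraries overlapped, since Solvent replicate 1 was above DNCB replicate 1. The scMSC libraries were below every DNCB library, and the scivMSC libraries were the lowest of all. By group mean the order was DNCB (6.88 FPKM ± 1.9), Solvent (3.78 ± 1.5), scMSC (2.03 ± 0.62) and scivMSC (0.705 ± 0.32; SD, n = 3 each), in which DNCB overlapped Solvent and Solvent overlapped scMSC, but scMSC did not overlap scivMSC.

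Il13ra1 (ENSMUSG00000017057; chromosome X, 36112110 to 36171259, plus strand) encodes the partner chain of the type II receptor. It was at 1.25, 1.04 and 0.685 FPKM in Solvent and at 5.68, 10.4 and 8.28 FPKM in DNCB. The scMSC libraries held 1.40, 1.13 and 0.893 FPKM, and the scivMSC libraries 0.588, 0.0908 and 0.433 FPKM. All DNCB libraries stood above the libraries of every other group, Solvent and scMSC overlapped, and all scivMSC libraries lay below both. The lowest value, in scivMSC replicate 2, rested on 19 estimated counts. The group means were 8.12 FPKM ± 2.4 in DNCB, 1.14 ± 0.25 in scMSC, 0.989 ± 0.28 in Solvent and 0.371 ± 0.25 in scivMSC (SD, n = 3 each).

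Il2rg (ENSMUSG00000031304; chromosome X, 101264378 to 101268255, minus strand) encodes the common gamma chain, which the receptors for IL-2, IL-7, IL-9, IL-15 and IL-21 also use. Its level was 18.75, 12.46 and 11.002 FPKM in Solvent and 6.81, 7.67 and 4.30 FPKM in DNCB. It was 8.70, 5.71 and 7.27 FPKM in scMSC and 3.31, 1.63 and 2.44 FPKM in scivMSC. The order differed from that of the other chains: the Solvent libraries were above those of every other group, DNCB and scMSC overlapped, and scivMSC was again lowest. Group means were 14.1 FPKM ± 4.1 in Solvent, 7.23 ± 1.5 in scMSC, 6.26 ± 1.8 in DNCB and 2.46 ± 0.84 in scivMSC (SD, n = 3 each). A predicted gene, Gm20489, lies over the whole of Il2rg on the same strand, so by position alone the reads of both genes cannot be told apart in any library. The counts listed for Gm20489 were 0 in 10 of 12 libraries, 64 in Solvent replicate 3 and 10 in scivMSC replicate 2.

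Il17ra (ENSMUSG00000002897; chromosome 6, 120463247 to 120487559, plus strand) encodes the shared chain of the IL-17 receptors. It was at 5.92, 4.44 and 3.06 FPKM in Solvent and at 9.66, 13.9 and 8.77 FPKM in DNCB. It was at 3.31, 2.85 and 3.58 FPKM in scMSC and at 1.52, 0.221 and 0.639 FPKM in scivMSC. DNCB was above all other groups without overlap, Solvent overlapped scMSC, and the scivMSC libraries were below all others. Group means were 10.8 FPKM ± 2.7 in DNCB, 4.47 ± 1.4 in Solvent, 3.25 ± 0.37 in scMSC and 0.793 ± 0.66 in scivMSC (SD, n = 3 each). The chains that pair with it (Il17rb, Il17rc, Il17rd and Il17re) were all below the filter, with group means of at most 0.119 FPKM.

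Stat6 (ENSMUSG00000002147; chromosome 10, 127642986 to 127660957, plus strand) encodes the transcription factor that IL-4 and IL-13 receptors activate. It was at 7.43, 4.97 and 4.49 FPKM in Solvent and at 10.9, 14.9 and 8.38 FPKM in DNCB. The scMSC libraries held 4.37, 4.58 and 4.90 FPKM and the scivMSC libraries 2.20, 0.832 and 1.43 FPKM. The pattern was that of Il17ra, with DNCB highest, Solvent overlapping scMSC, and scivMSC lowest. Group means were 11.4 FPKM ± 3.3 in DNCB, 5.63 ± 1.6 in Solvent, 4.61 ± 0.27 in scMSC and 1.49 ± 0.69 in scivMSC (SD, n = 3 each). It shares 40 bases with Nab2 on the other strand, which was measured at no more than 1.46 FPKM.

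**Figure D1:**
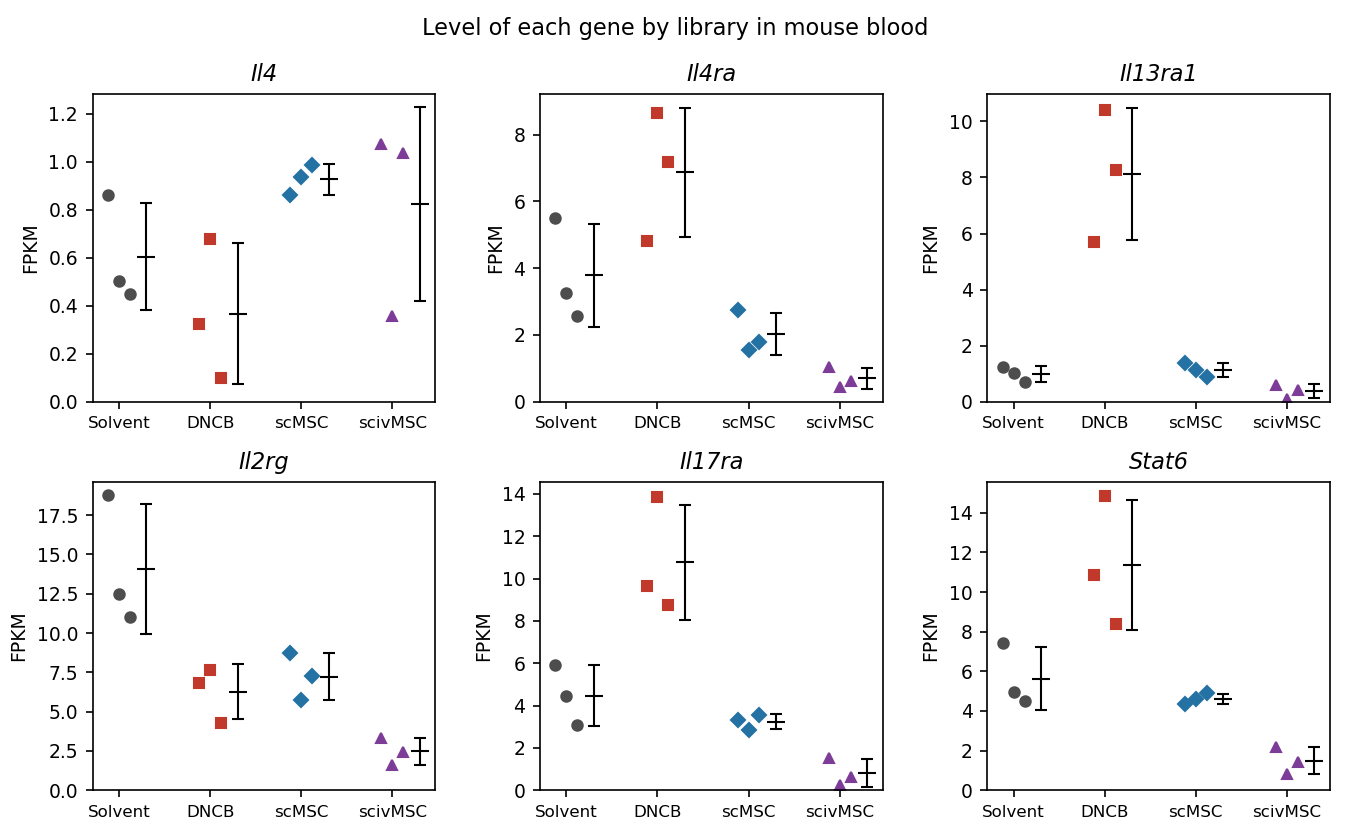
Level of each of the 6 genes in FPKM (y axis, linear, from 0; each panel has its own range) in the 4 groups, with a symbol for each library and a bar for the mean and SD of 3 libraries. Il13ra1, Il17ra and Stat6 were highest in all 3 DNCB libraries, Il2rg was highest in the Solvent libraries, and all genes but Il4 were lowest in scivMSC.

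Setting DNCB beside Solvent shows the effect of the sensitiser on the receptor genes. Il13ra1 rose and Il2rg fell, while Il4ra, Il17ra and Stat6 did not pass the test. Il13ra1 was 8.20-fold higher, with a fitted log2 change of 3.04 ± 0.52 (SE) and an adjusted p of 0.000476, or 2.98 relative to the median gene. Il2rg was 2.24-fold lower, with a log2 change of -1.17 ± 0.35 (SE) and an adjusted p of 0.0252, or -1.22 relative to the median gene. Of all tested genes 15.6% were called higher and 4.87% lower, against 1 member in each direction, and the Il13ra1 change lay at the 96.8 and the Il2rg change at the 8.34 percentile of all changes. Under TMM scaling 16.1% were called higher and 11.5% lower.

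Il17ra, Stat6 and Il4ra were not called in the same comparison. The log2 fold change was 1.27 ± 0.47 for Il17ra (SE, adjusted p = 0.0671), 1.01 ± 0.36 for Stat6 (SE, adjusted p = 0.0521) and 0.86 ± 0.39 for Il4ra (SE, adjusted p = 0.132). The libraries of Il17ra and Stat6 did not overlap between DNCB and Solvent, which held for 25% of all tested genes in this direction and for 16.5% in the other, that of Il2rg. Il17ra passed under TMM scaling, at 1.12 with an adjusted p of 0.00805. Stat6 (0.86, adjusted p = 0.00113) and Il4ra (0.76, adjusted p = 0.00976) missed there only by a fold change under 2. Il17ra and Stat6 passed in a fit of the 6 libraries alone, with adjusted p of 0.000941 and 0.0161. The Il2rg call was lost without Solvent replicate 1 (-0.90, adjusted p = 0.0947), without DNCB replicate 1 (-1.23, adjusted p = 0.0593) and without DNCB replicate 3 (-0.95, adjusted p = 0.110), whereas Il13ra1 was called without any of the 12 libraries.

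Setting each MSC group beside DNCB shows what went with either route of injection in sensitised mice. Both comparisons share the 3 DNCB libraries, so a high or low DNCB library moves both. In scMSC, Il13ra1, Il4ra, Il17ra and Stat6 fell against DNCB, and Il2rg did not pass. The log2 fold changes were -2.84 ± 0.51 for Il13ra1 (SE, adjusted p = 0.000991), -1.77 ± 0.40 for Il4ra (SE, adjusted p = 0.00405), -1.74 ± 0.48 for Il17ra (SE, adjusted p = 0.0126) and -1.31 ± 0.36 for Stat6 (SE, adjusted p = 0.0122). These are falls of 7.16-, 3.41-, 3.35- and 2.48-fold. Relative to the median gene the changes were -2.21, -1.14, -1.11 and -0.68.

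Among all tested genes 24.9% were called lower and 1.27% higher in scMSC, against 4 and 0 of the 5 members. The libraries of these 4 lay below those of DNCB without overlap, as did 49.8% of all tested genes, while 5.54% lay above. Under TMM scaling these shares were 12.3% and 8.74%, and Il13ra1 (-2.14), Il4ra (-1.09) and Il17ra (-1.03) remained called while Stat6 did not, at -0.58. Without DNCB replicate 2 the adjusted p of Il17ra was 0.0612 and that of Stat6 0.0726, and without scMSC replicate 2 they were 0.0633 and 0.0522. Il2rg had a log2 change of 0.19 ± 0.35 (SE) with an adjusted p of 0.692, and its libraries overlapped. Relative to the median gene this was 0.83, at the 85.5 percentile, and under TMM scaling it was 0.89 with an adjusted p of 0.00129 and a fold change under 2.

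In scivMSC all 5 tested members fell against DNCB. The log2 fold change was -4.45 ± 0.55 for Il13ra1 (SE, adjusted p = 9.74e-06), a 21.8-fold fall, and -3.76 ± 0.52 for Il17ra (SE, adjusted p = 1.99e-05), a 13.6-fold fall. It was -3.28 ± 0.42 for Il4ra, -2.93 ± 0.38 for Stat6 and -1.35 ± 0.36 for Il2rg (SE). The last had an adjusted p of 0.00342. Of all tested genes 62% were called lower and 1.43% higher, and the libraries of 67.9% lay below and of 5.41% above those of DNCB without overlap, as all 5 members lay below. Relative to the median gene the changes in the order above were -2.92, -2.23, -1.76, -1.40 and 0.18. Under TMM scaling 18.9% of tested genes were called lower and 20.6% higher. The first 4 members were then still called, between -1.37 and -2.98, but Il2rg turned to 0.26 with an adjusted p of 0.206, so its direction depended on the scaling.

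**Figure D2:**
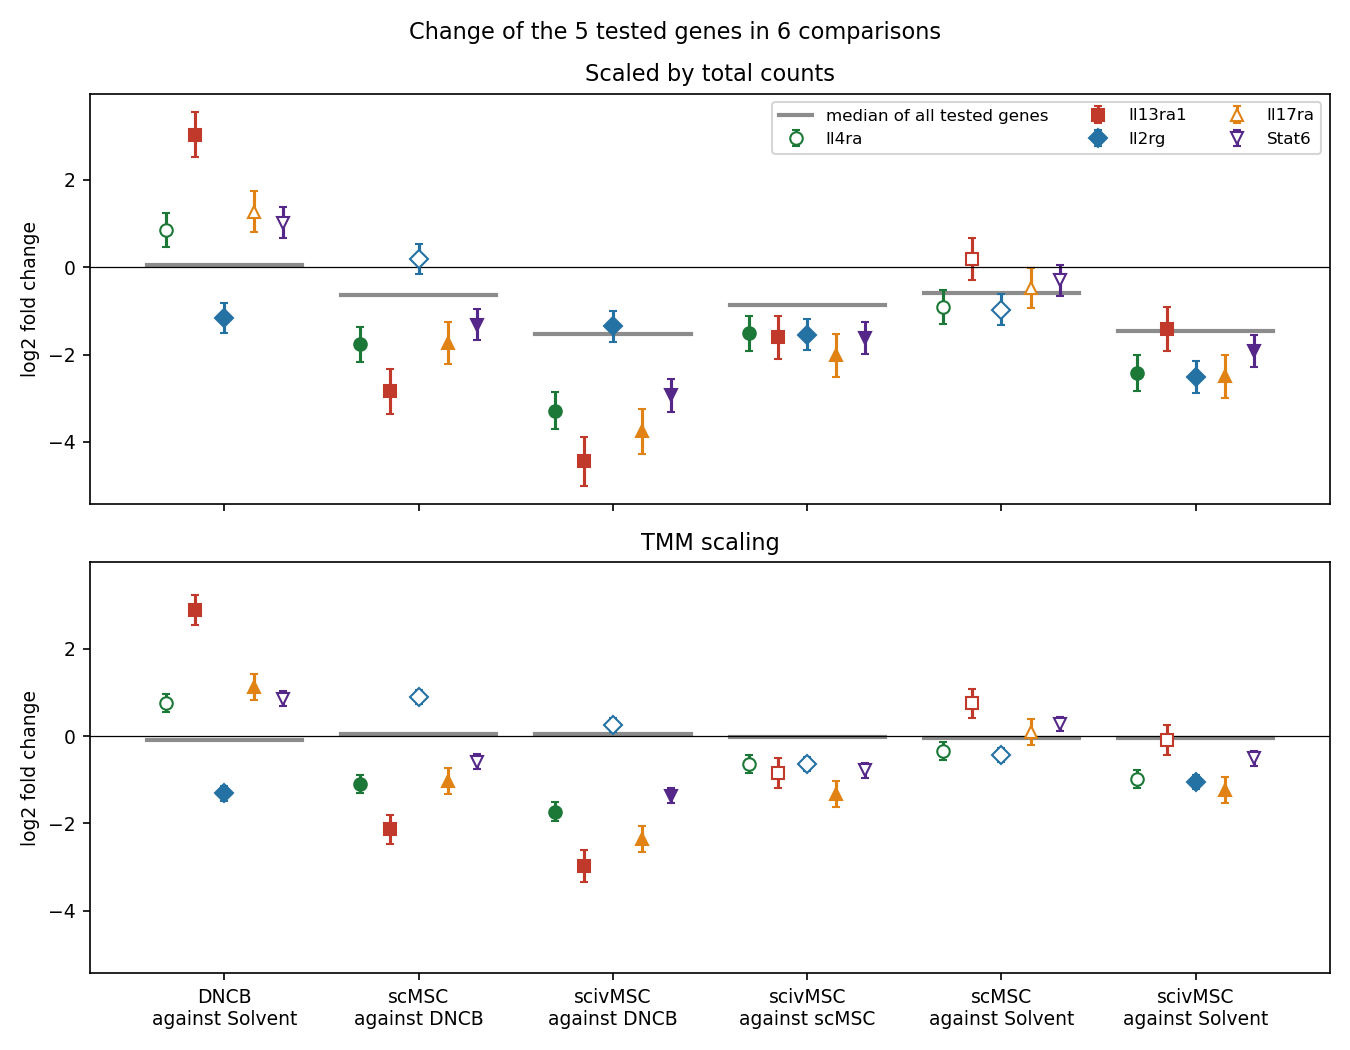
The log2 fold change of the 5 tested genes (y axis) in 6 comparisons (x axis), with libraries scaled by total counts (upper panel) or by TMM (lower panel). Symbols give the fitted change with its SE, filled where the gene was called, and grey lines the median of all 5527 tested genes. Il13ra1 was the highest member in DNCB against Solvent (3.04) and the lowest in both MSC groups against DNCB (-2.84 and -4.45), and Il2rg lay on the other side of the median line in the first 2 comparisons.

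The direct comparison of both routes asks whether they differed. With all 12 libraries in the fit, all 5 members were lower in scivMSC than in scMSC, with log2 fold changes from -1.52 (Il4ra) to -2.02 (Il17ra) and adjusted p from 0.0108 to 0.0262. Relative to the median gene they were -0.65 to -1.15. The libraries of these genes lay lower without overlap, as did those of 46.7% of all tested genes, while those of 3.82% lay higher. Of all tested genes 30.4% were called lower and 0.344% higher under total scaling, and 4.92% and 13.1% under TMM scaling. Under TMM scaling Il17ra alone of the members remained called, at -1.32 with an adjusted p of 0.00606. A fit of these 6 libraries alone called 0 members by edgeR, with adjusted p between 0.0518 and 0.0927, and in the fit over all groups DESeq2 called 1 and limma 3. At an unadjusted p under 0.05 the fit over all groups gave 5. Il4ra and Il13ra1 were no longer called without scMSC replicate 1 (adjusted p = 0.0688 and 0.0859) and without scivMSC replicate 3 (adjusted p = 0.0523 and 0.0568), and Il13ra1 also without scivMSC replicate 2 (adjusted p = 0.0501).

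Against Solvent, which the next 2 comparisons share, scMSC showed 0 called members by edgeR, DESeq2 or limma, and 2, Il4ra and Il2rg, at an unadjusted p under 0.05 in edgeR. Of all tested genes 0.326% were called higher and 0.326% lower, or 7.29% and 1.21% under TMM scaling, where again no member was called. The Il2rg libraries of scMSC lay below those of Solvent without overlap, as did those of 40.6% of all tested genes against 7% above, with a log2 change of -0.97 ± 0.35 (SE) and an adjusted p of 0.113. Il13ra1 differed from Solvent by 0.20 ± 0.48 in log2 (SE), with an adjusted p of 0.783. In scivMSC all 5 members were lower than in Solvent, by log2 fold changes of -2.51 for Il2rg, -2.49 for Il17ra, -2.42 for Il4ra, -1.92 for Stat6 and -1.41 for Il13ra1. Set against the median gene, at -1.47, these changes were -1.05, -1.03, -0.96, -0.45 and 0.05 in the same order. Of all tested genes 59.2% were called lower and 2.59% higher, and the libraries of 62.6% lay below and of 6.1% above those of Solvent without overlap, as all 5 members lay below. Under TMM scaling 13.4% were called lower and 22.4% higher, and Il17ra (-1.23) and Il2rg (-1.06) remained called and Il13ra1 was at -0.09 with an adjusted p of 0.85. The Il13ra1 call was lost without Solvent replicate 1 (adjusted p = 0.0763), and without scivMSC replicate 2, where its fold change fell under 2. Over the 4 groups together, all 5 members passed edgeR's F test, as did 72.3% of all tested genes.

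Because Il2rg and Il13ra1 are alternative partners of Il4ra, their ratios were computed within each library, where they do not depend on the scaling. The ratio of Il13ra1 to Il2rg was 0.0665, 0.0830 and 0.0622 in Solvent and 0.834, 1.36 and 1.93 in DNCB. It was 0.161, 0.198 and 0.123 in scMSC and 0.178, 0.0556 and 0.177 in scivMSC. The level of the type II chain was thus far below that of the type I chain in Solvent and near or above it in DNCB. On the log2 scale the group means were -3.84 ± 0.22, 0.37 ± 0.61, -2.67 ± 0.35 and -3.05 ± 0.97 (SD, n = 3 each), and an exact permutation test of all 4 groups gave 0.00364 as p (adjusted p = 0.0103 over 3 ratios). The DNCB mean was 18.5-fold above Solvent, 8.23-fold above scMSC and 10.8-fold above scivMSC. For each of these pairs the two-sided exact permutation test gave 0.1, its smallest possible p with 3 libraries a side. The scMSC ratios stayed 2.25-fold above Solvent without overlap (exact permutation p = 0.1), while scivMSC overlapped scMSC through replicates 1 and 3 and reached below Solvent with replicate 2.

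The ratio of Il4ra to Il2rg was 0.294, 0.263 and 0.234 in Solvent, 0.705, 1.13 and 1.67 in DNCB, 0.315, 0.273 and 0.247 in scMSC and 0.318, 0.267 and 0.256 in scivMSC. The DNCB libraries stood apart, and the other groups overlapped one another. On the log2 scale scMSC differed from Solvent by 0.08 (exact two-sided permutation p = 0.6) and scivMSC from Solvent by 0.09 (p = 0.6), whereas DNCB was 4.19-fold above Solvent. Over all groups the p of the exact permutation test was 0.0138, also after adjustment over the ratios. The ratio of Il4ra to Il13ra1 was 4.42, 3.16 and 3.75 in Solvent and 0.845, 0.831 and 0.868 in DNCB. In scMSC it was 1.96, 1.38 and 2.01 and in scivMSC 1.79, 4.81 and 1.44. The DNCB libraries were lowest of all and close together, at a log2 mean of -0.24 ± 0.03 (SD, n = 3), scMSC lay between DNCB and Solvent without overlap with either, and the p of the exact permutation test was 0.00688 (adjusted p = 0.0103 over 3 ratios).

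**Figure D3:**
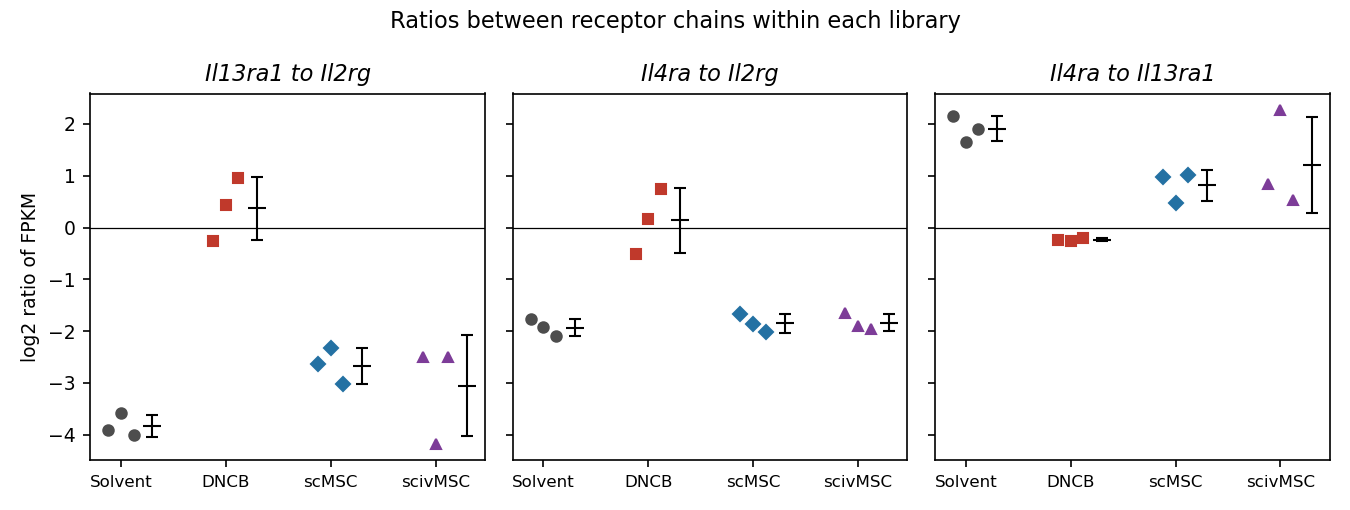
The log2 ratio of FPKM between receptor chains within each library (y axis) for the 4 groups (x axis), with a symbol for each library and a bar for the mean and SD of 3 libraries. In DNCB the ratio of Il13ra1 to Il2rg (mean 0.37) and that of Il4ra to Il2rg (mean 0.14) stood above all other groups, and that of Il4ra to Il13ra1 (mean -0.24) stood below them.

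In blood, fewer cells of a type and less RNA per cell cannot be told apart, so markers of 8 cell types were set beside these genes. All 10 neutrophil markers rose in DNCB, and their summed level was 220 to 445 FPKM in Solvent, 6958 to 10928 in DNCB, 572 to 716 in scMSC and 243 to 729 in scivMSC. Monocyte markers summed to 7.31 to 22.0 FPKM in Solvent, 25.5 to 42.0 in DNCB, 6.60 to 8.74 in scMSC and 1.46 to 3.66 in scivMSC, with 2 of 5 tested called higher in DNCB against Solvent and 4 of 5 lower in scMSC against DNCB. T cell markers summed to 73.9 to 128 FPKM in Solvent, 27.9 to 42.6 in DNCB, 39.5 to 53.8 in scMSC and 9.72 to 26.0 in scivMSC, and 9 of 10 fell in DNCB. All 8 tested B cell markers fell in DNCB as well, from 45.5 to 143 FPKM in Solvent to 12.6 to 36.0. Of 4 natural killer cell markers 3 fell in DNCB, of 3 eosinophil and basophil markers 1 rose and of 8 platelet markers 4 rose. Of 6 erythroid markers edgeR, DESeq2 and limma called 0 in DNCB against Solvent, and none was at an unadjusted p under 0.05. In scivMSC against DNCB, where the members fell, all 10 neutrophil, all 5 tested monocyte and all 8 tested B cell markers fell too. So did 3 of 10 T cell, 2 of 4 natural killer cell and 2 of 3 eosinophil and basophil markers, with 1 of the last list called higher. Of all tested genes 62% were called lower there. EdgeR called 0 of 6 erythroid and 0 of 8 platelet markers under total scaling. Of these, 1 of each list was at an unadjusted p under 0.05, DESeq2 called 6 and 7, and limma called 0 and 1. Under TMM scaling 6 of 6 erythroid markers, at a median of 2.14, and 7 of 8 platelet markers were called higher there. No neutrophil, T cell or B cell marker was at 0 in any library. The monocyte markers Cx3cr1 and Fcgr1 were each at 0 in 1 scivMSC library, and the eosinophil peroxidase gene Epx was at 0 in 3 Solvent, 1 DNCB, 2 scMSC and 1 scivMSC libraries. Prg2 was at 0 in 1 Solvent library, and Fcer1a and Cpa3 each in 1 scivMSC library.

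Il2rg followed the T cell markers: it equalled 15.1% ± 0.54 of their summed level in Solvent, 16.7% ± 1.8 in DNCB, 14.8% ± 1.2 in scMSC and 14.1% ± 2.3 in scivMSC (SD, n = 3 each). Il4ra equalled 28.5% ± 5.8 of the monocyte marker sum in Solvent, 22.5% ± 4.9 in DNCB, 26.8% ± 4.0 in scMSC and 27.0% ± 4.2 in scivMSC (SD, n = 3 each), and the groups overlapped. Il13ra1 was not a steady share of the neutrophil marker sum, at 0.288% ± 0.048 in Solvent, 0.0980% ± 0.018 in DNCB, 0.174% ± 0.039 in scMSC and 0.0719% ± 0.031 in scivMSC (SD, n = 3 each). Of the monocyte marker sum it equalled 7.67% ± 1.9 in Solvent and 26.5% ± 5.2 in DNCB. In scMSC and scivMSC it equalled 15.3% ± 2.3 and 12.6% ± 5.5 of that sum (SD, n = 3 each). Il17ra equalled 34.3% ± 7.5, 35.1% ± 2.6, 43.9% ± 6.5 and 26.5% ± 14 of the monocyte marker sum in the same order of groups (SD, n = 3 each). Stat6 equalled 44.5% ± 15 of the monocyte marker sum in Solvent, 36.9% ± 5.1 in DNCB, 63.0% ± 11 in scMSC and 56.0% ± 4.7 in scivMSC (SD, n = 3 each), and both MSC groups lay above DNCB without overlap. These pairings of genes and marker lists were chosen after their values were seen, and the part of cell numbers in the differences was not tested.

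**Figure D4:**
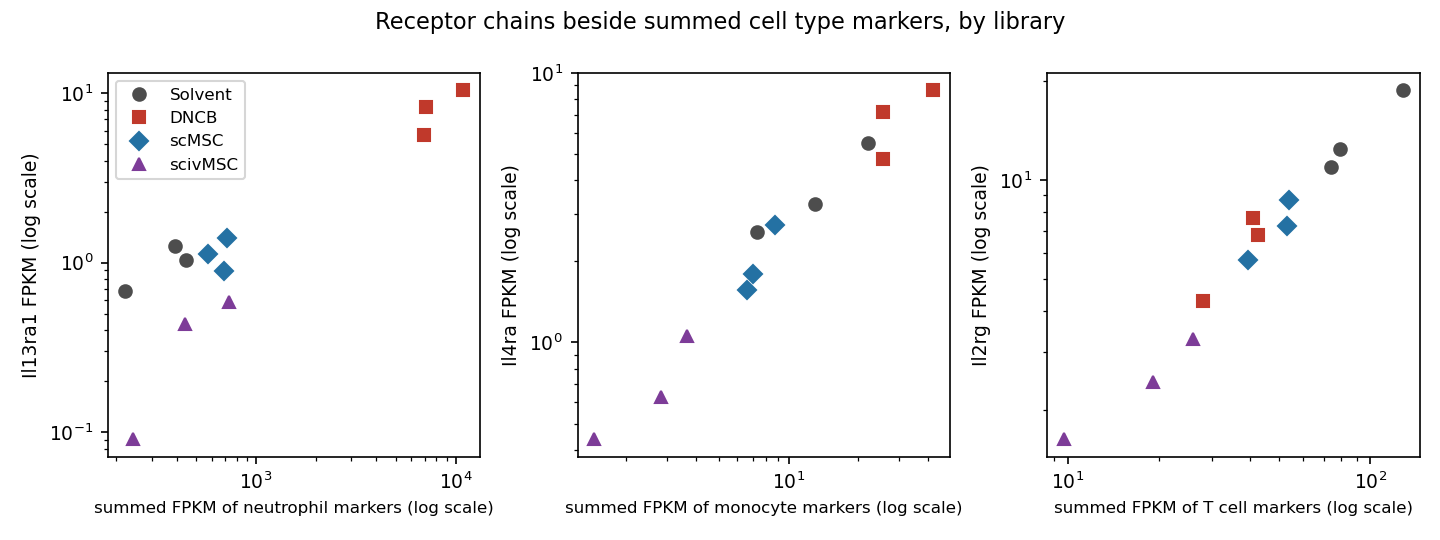
Level of Il13ra1, Il4ra and Il2rg in FPKM (y axes, log scale) against the summed FPKM of neutrophil, monocyte and T cell markers (x axes, log scale), with a symbol for each of 12 libraries. Il2rg and Il4ra lay near a straight line through all groups, at group means of 14.1% to 16.7% of the T cell sum and 22.5% to 28.5% of the monocyte sum, whereas the neutrophil sum of the DNCB libraries, 6958 to 10928 FPKM, stood far to the right.

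Of the other genes of both pathways, 23 passed the filter. In DNCB against Solvent, 5 of them (21.7%) rose and 4 (17.4%) fell, beside 15.6% and 4.87% of all tested genes, with a median log2 fold change of 0.49. Against DNCB, 8 (34.8%) fell and 0 rose in scMSC, and 16 (69.6%) fell and 0 rose in scivMSC, beside 24.9% and 62% of all tested genes called lower. The medians were -0.65 and -1.90, beside -0.63 and -1.53 for all tested genes. Under TMM scaling 3 rose and 4 fell in scMSC against DNCB, where 8.74% and 12.3% of all tested genes did. In scivMSC against DNCB 1 rose and 7 fell, where 20.6% and 18.9% of all tested genes did.

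Of the chains that pair with Il2rg in other receptors, 3 passed the filter. Il2rb, of the receptors for IL-2 and IL-15, fell in DNCB by 1.25 on the log2 scale, Il7r, of the IL-7 receptor, fell by 1.10, and Il21r was at -1.05 with an adjusted p of 0.0588. In this comparison DESeq2 called all 3 and limma called 0. In scMSC against DNCB edgeR called 0 of these 3, with 1 at an unadjusted p under 0.05, and limma called 0, but under TMM scaling and by DESeq2 all 3 rose. In scivMSC against DNCB, where Il2rg was called lower, edgeR, DESeq2 and limma each called 0 of the 3, with 2 at an unadjusted p under 0.05. Il15ra, of the IL-15 receptor, was below the filter, at 0.158 FPKM ± 0.080 in Solvent and 0.392 ± 0.19 in DNCB (SD, n = 3 each). Its libraries did not overlap, as held for 25% of all tested genes in this direction, a set that leaves Il15ra out. The beta chain Csf2rb, shared by the receptors for IL-3, IL-5 and granulocyte-macrophage colony-stimulating factor, had log2 fold changes of 1.71 in DNCB against Solvent (adjusted p = 0.0235) and -1.60 in scMSC against DNCB (adjusted p = 0.0271). The second was not called under TMM scaling, at -0.88 with an adjusted p of 0.0973.

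The 4 Janus kinases carry the signal from these receptors to STAT proteins. In DNCB against Solvent edgeR, DESeq2 and limma each called 0 of 4, and in edgeR Jak2 was at an unadjusted p under 0.05. In scMSC against DNCB each tool again called 0, with Jak1 (-0.65, adjusted p = 0.0994) and Jak2 (-0.83, adjusted p = 0.0671) at an unadjusted p under 0.05. All 4 fell in scivMSC against DNCB, by 1.44 (Jak2) to 1.90 (Jak3 and Tyk2) on the log2 scale. In that comparison 62% of all tested genes were called lower, at a median of -1.53. Under TMM scaling 0 of 4 were called, with a median of -0.06, and Jak1 and Jak2 were at 0.12 and 0.23. Among other STAT genes Stat3 rose in DNCB, by 1.24 (adjusted p = 0.0271), and its change in scMSC against DNCB was -1.497 (adjusted p = 0.00845), or -0.79 and not called under TMM scaling. In DNCB against Solvent limma called 0 of the 4 tested genes of this list and DESeq2 called 2.

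Of 8 listed genes of IL-17 receptor signalling 3 passed the filter. The adaptor gene Traf5 fell in DNCB by 1.37 on the log2 scale (adjusted p = 0.0194), where 4.87% of all tested genes were called lower. Nfkbiz, a transcriptional regulator downstream of the receptor, was at -1.71 in scMSC against DNCB (adjusted p = 0.0153), where 24.9% were called lower. Zc3h12a was called in neither comparison. In each of them limma called 0 of these 3 genes, while DESeq2 called 2 and 1.

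The feedback inhibitor Socs3 rose by 2.09 in DNCB (adjusted p = 0.00087) and fell by 2.42 in scMSC against DNCB (adjusted p = 0.000433) on the log2 scale. The phosphatase gene Ptpn6 fell by 1.65 in scMSC against DNCB but was at -0.94 and not called under TMM scaling, while Ptpn11 was at -0.06, 0.08 and 0.08 in the 3 comparisons of DNCB with Solvent and of scMSC and scivMSC with DNCB, and at 1.73 in the last under TMM scaling. Of 3 tested genes known to respond to STAT6, Chil3 rose in DNCB by 4.18, the low-affinity IgE receptor gene Fcer2a fell by 2.43, and Alox15 was not called. Chil3 is also known as a product of neutrophil precursors and macrophages, and Fcer2a as a B cell gene. Lcn2, which IL-17 induces in epithelium and which neutrophil granules also hold, rose in DNCB from a mean of 1.56 to 95.2 FPKM, a log2 fold change of 5.92.

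**Figure D5:**
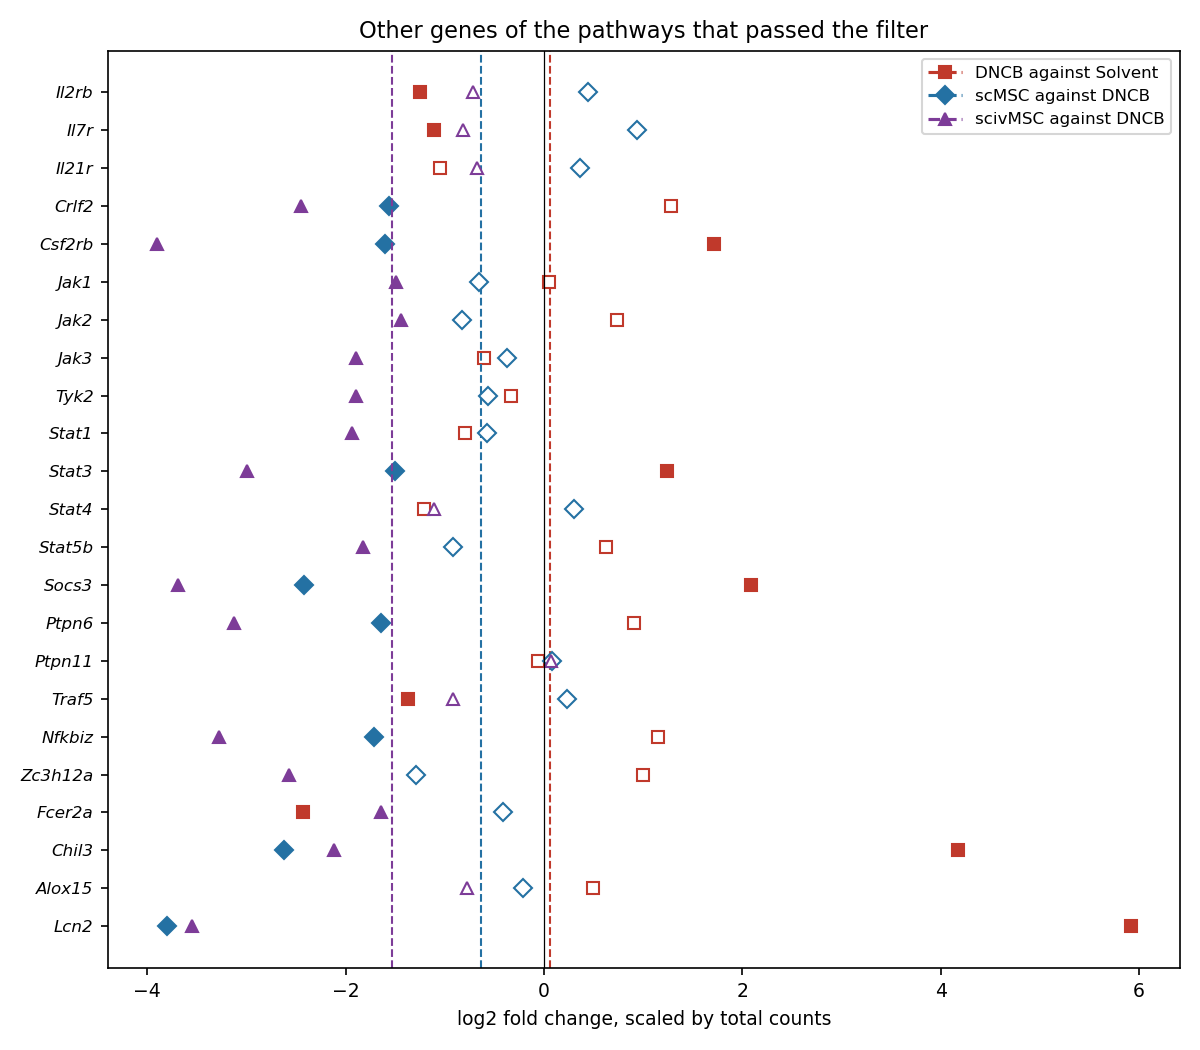
The log2 fold change (x axis, libraries scaled by total counts) of 23 other genes of the IL-4, IL-13 and IL-17 pathways (y axis) in 3 comparisons, filled where the gene was called, with dashed lines at the median of all tested genes in the comparison of the same colour. Lcn2 (5.92) and Chil3 (4.18) lay highest in DNCB against Solvent, and Il2rb, Il7r, Traf5 and Fcer2a were called lower.

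The genes most like each member in pattern were found over 12 libraries, by the root mean square difference of log2(FPKM + 1) after each gene's mean was taken off, leaving out predicted genes without a name. For Il13ra1 they included Nfil3 (0.118) and Card9, beside a median of 0.915 over all tested genes. For Il2rg they were Ms4a6b (0.0979), Atp1b3 and Dgka. For Il4ra they were Tlr1 (0.142), Glud1 and Ddx6, for Il17ra AI467606 (0.107), Rassf5 and Tnfrsf1b, and for Stat6 Arhgap25 (0.138), Il6ra and Cyth4. Within the members, Stat6 and Il17ra were the closest pair, at 0.194, and 0.398% of tested genes were closer to Il17ra than Stat6 was. Il13ra1 and Il2rg were farthest apart, at 1.20. These distances describe the 12 libraries, which share the haemoglobin content and depth given above, and carry no test.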

How the data were processed

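RNA from blood of 12 mice was measured by sequencing, and the labels gave each library its group and number. The authors deposited a single table of 25247 genes in which every library has a column of estimated counts and a column of FPKM values, 24 in all. Per the labels, the submitters' processing notes name Bowtie 0.12.2, HISAT2 2.0, StringTie 1.3.0 and the build mm8, without roles. The gene positions in the table overlap those of GRCm38.p6 for 99.9% of 21414 symbols matched once in both, so coordinates are given as deposited. Whether reads were assigned by strand is not given in the sources used here. The deposited counts are whole numbers, so no rounding was needed. Of cells holding 1 to 12 counts, 54.8% held a multiple of 4, so the number of fragments may be lower than the counts show.

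edgeR 4.0.16 in R 4.3.3 fitted all 12 libraries with 4 group means, scaled by total counts, on the 5527 genes that reached 1 FPKM in 3 or more libraries, with Benjamini-Hochberg adjustment over all of them. Standard errors were derived from the log2 fold change and its F statistic. Ratios and Il4 were tested by exact permutation of the group labels, with 15400 arrangements. Alternatives used TMM scaling, haemoglobin left out of the counts, DESeq2 1.42.0, limma 3.58.1 on log2(FPKM + 1) or log2(FPKM + 0.1), other filters, a replicate block, the 2 groups compared alone, each library left out, and counts divided by 4, which was chosen after seeing the data. On simulated counts for DNCB against Solvent with 200 of 5527 genes changed 8-fold, edgeR recovered 200 with 18 false calls, limma 169 with 5 and DESeq2 200 with 21.

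The members, pathway lists and marker lists were chosen with earlier results of these data known. The named genes are the members, the genes of those lists and the 3 genes closest to each member, of which a single gene is not reported here. Il4, at 8 to 77 counts per library, is the least precise of the members.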

Additional observations from a re-analysis of the deposited data

How the results depend on the processing

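Over all alternatives the log2 fold changes of the 5 tested genes kept direction and call in 593 cases, gained a call in 18, lost it in 50 and reversed in 11. For DNCB against Solvent, the 1 member called higher became 2 with TMM scaling, with haemoglobin left out, with DESeq2, with limma at a pseudocount of 1 and with the replicate block under TMM scaling, and 3 with the replicate block, with counts divided by 4 and with only the 2 groups compared; leaving out a library gave 1 to 3. The 1 member called lower became 0 without the low-value filter, where more genes were tested, and 0 to 1 without a library. A mean FPKM of at least 5 kept only Il2rg and Stat6 in the fit, so the members called lower were 1 in scMSC against DNCB, 2 in scivMSC against DNCB, 2 in scivMSC against scMSC and 2 in scivMSC against Solvent, and 2 passed the F test. Leaving out a library gave 2 to 4 lower in scMSC against DNCB, 3 to 5 in scivMSC against scMSC and 4 to 5 in scivMSC against Solvent. For scivMSC against scMSC, TMM scaling, DESeq2 and the block under TMM scaling called 1 lower, limma at a pseudocount of 1 called 3, and only the 2 groups compared gave 0. For scivMSC against Solvent, TMM scaling, DESeq2 and the block under TMM scaling called 2. The Il4 test over the groups ranged from p = 0.0478 to 0.340 when a library was left out (exact permutation).

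Reversed values were, under TMM scaling, DESeq2 and the block with TMM scaling in turn, 0.26, 0.24 and 0.27 for Il2rg in scivMSC against DNCB, 0.091, 0.084 and 0.095 for Il17ra and 0.27, 0.27 and 0.27 for Stat6 in scMSC against Solvent. Without DNCB replicate 3 Il2rg was at -0.017 in scMSC against DNCB, in a range up to 0.37 over the libraries left out, and without Solvent replicate 3 Il13ra1 was at -0.012 in scMSC against Solvent, in a range up to 0.40. Of 18 pairs of libraries with the same replicate number, 3 had a correlation of deviations over 0.1, in a range from -0.20 to 0.17. Pairs of unlike number were not set beside them, so these values cannot show whether the numbers pair the samples. With the replicate as a block the exact permutation p of the ratios, adjusted over the 3, was 0.031, 0.0156 and 0.0330, and the unadjusted p of Il4 was 0.226. The cause of these shifts was not tested.

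Counts over all tested genes moved by more than 1.5 times in each comparison. Over the alternatives that keep all libraries of the groups compared, higher and lower calls ranged from 262 to 1056 and from 47 to 635 in DNCB against Solvent (864 and 269 in the fit as reported), from 20 to 489 and from 317 to 1804 in scMSC against DNCB (70 and 1375), from 25 to 1153 and from 507 to 5780 in scivMSC against DNCB (79 and 3427), from 0 to 815 and from 4 to 2191 in scivMSC against scMSC (19 and 1682), from 10 to 451 and from 1 to 1016 in scMSC against Solvent (18 and 18), and from 58 to 1294 and from 427 to 7116 in scivMSC against Solvent (143 and 3272). Leaving out a library passed these ranges with up to 2925 lower calls in scivMSC against scMSC, and with down to 4 higher and 0 lower calls in scMSC against Solvent. Values were low for Il4, for the other ligands and for Il13ra1 in scivMSC replicate 2, and the part of depth in this was not tested.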
